A study of Mus musculus with 35 samples.

Results

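The Fc receptor genes described here are Fcgr1, Fcgr3, Fcgr4, Fcgr2b, Fcer1g, Fcgrt and Fcrls, 7 of the 55401 genes in the count table. They were chosen by gene name, with earlier results of these data known, and all 7 passed the filter on low counts. They were measured by mRNA sequencing in CD45+ microglia that immunopanning, the capture of cells on an antibody-coated dish, had collected from whole brains of wild-type C57BL/6 mice. There were 4 females and 6 males at postnatal day 6 (P6), and 6 of each sex at both P15 and 8 weeks, with 1 library per mouse and no treatment. A further P6 female, replicate 6, was left out as the study did, because it stood apart on a multidimensional scaling plot. CD45 marks all white blood cells, so the capture can hold other immune cells, and RNA of neural genes was also detected.

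Fc receptors bind the constant part of antibodies. In the mouse, the IgG receptors FcγRI (Fcgr1), FcγRIII (Fcgr3) and FcγRIV (Fcgr4) activate phagocytes through the common γ chain (Fcer1g), whose ITAM motif recruits the kinase Syk, whereas FcγRIIB (Fcgr2b) carries an inhibitory ITIM motif that recruits the phosphatase SHIP1. The neonatal Fc receptor FcRn (Fcgrt) acts inside the cell instead, where it returns IgG and albumin from endosomes to the surface. Fcrls is an Fc receptor-like gene used as a marker of mouse microglia, and it is grouped here by its family rather than by antibody binding.

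Of the 7 genes, 4 lie within 275.7 kb of chromosome 1 (GRCm38/mm10), namely Fcgr2b (ENSMUSG00000026656, 170958617 to 170976547, minus strand), Fcgr4 (ENSMUSG00000059089, 171018920 to 171029761, plus strand), Fcgr3 (ENSMUSG00000059498, 171051174 to 171064935, minus strand) and Fcer1g (ENSMUSG00000058715, 171229572 to 171234365, minus strand). Fcgr1 (ENSMUSG00000015947, 96282909 to 96293969) and Fcrls (ENSMUSG00000015852, 87250758 to 87263738) lie on the minus strand of chromosome 3. Fcgrt (ENSMUSG00000003420, 45092990 to 45103851) lies on the minus strand of chromosome 7. All 7 are annotated as protein coding.

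The start sites of the 4 IgG receptors of the cell surface are shown because these genes were compared most closely below. Each sequence runs 5′ to 3′ on the gene's strand from 100 bases before to 20 bases after the RefSeq start site (GRCm38.p6). In Fcgr3 and Fcgr2b this start lies inside the gene span given above, and the outer end of that span was not searched. Capitals in the first 3 mark GAGGAA read on the opposite strand, a core that the myeloid factor PU.1 is known to bind. Capitals in Fcgr2b mark GGAA followed after 2 bases by GAAA, again on the opposite strand, the spacing known for sites that PU.1 shares with IRF factors.
Fcgr1, chr3:96293950-96294069, minus strand: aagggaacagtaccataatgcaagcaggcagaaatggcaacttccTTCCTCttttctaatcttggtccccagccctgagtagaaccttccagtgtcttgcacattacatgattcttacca
Fcgr3, chr1:171059384-171059503, minus strand: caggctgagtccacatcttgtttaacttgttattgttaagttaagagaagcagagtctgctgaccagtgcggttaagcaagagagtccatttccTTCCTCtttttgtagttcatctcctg
Fcgr4, chr1:171018826-171018945, plus strand: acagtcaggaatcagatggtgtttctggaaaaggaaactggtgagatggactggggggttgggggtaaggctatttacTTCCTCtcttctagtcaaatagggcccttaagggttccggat
Fcgr2b, chr1:170976052-170976171, minus strand: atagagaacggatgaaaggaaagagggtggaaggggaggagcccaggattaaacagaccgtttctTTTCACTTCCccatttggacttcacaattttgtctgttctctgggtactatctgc
The GAGGAA match began 55 bases before the start site in Fcgr1, 6 before it in Fcgr3 and 22 before it in Fcgr4. Fcrls also held the motif, on its own strand, in the wider window of 250 bases before to 50 after the start. With both strands searched, 4 of the 7 promoters held GAGGAA, against 28.3% of 27025 mouse promoters of that length. The spaced GGAA and GAAA pair was in Fcgr2b alone of the 7 and in 2.79% of all promoters, and the AP-1 core TGANTCA was in none of the 7 and in 7.93% of all. The Fcgr1 and Fcgr3 promoters shared TTCCTTCCTCTTTT, the longest run common to any pair of the 7. These are matches of letters, and binding was not measured.

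The libraries held between 23316107 and 38965078 counted fragments. The 8 microglial markers, such as Tmem119 and P2ry12, were detected at every age. Their summed level ran from 4964 to 9069 CPM (counts relative to library size, scaled by edgeR's TMM factors) at P6, from 11877 to 23734 at P15 and from 16779 to 23435 at 8 weeks. The 9 progenitor markers summed to 660 to 2036 CPM at P6 and to 88.9 to 205 CPM at 8 weeks, and all 9 were lower. The 6 neuronal markers were mixed, with 1 higher and 4 lower at 8 weeks than at P6, and 2 higher and 2 lower at P15 than at P6. Among them Tubb3 averaged 318, 89.96 and 10.7 CPM at P6, P15 and 8 weeks, and Snap25 21.4, 59.4 and 42.6 CPM. The sum of the 8 astrocyte and oligodendrocyte markers was 434 to 1049 CPM at P6, 1692 to 6488 at P15 and 1806 to 4184 at 8 weeks, most of it from Slc1a2, Mbp and Aldoc. Of these 8 genes 5 rose and 1 fell between P6 and P15, and 5 rose and 3 fell between P6 and 8 weeks, with Olig2 at 36.7, 22.4 and 15.3 CPM at the 3 ages. Their part in the age changes was not tested. CPM are shares of a library, so each age change of the 7 genes is also given after libraries were rescaled so that 10 macrophage-lineage genes (among them Csf1r, Cx3cr1, Aif1, Spi1, Irf8, Laptm5, Itgam, Ptprc and Cyth4) had the same mean log2 CPM in every mouse. This myeloid scaling moved the median log2 fold change (log2FC) of all genes to -0.85 for P15 against P6, -0.27 for 8 weeks against P15 and -1.09 for 8 weeks against P6. The 10 genes did not change alike. With TMM, Spi1 averaged 337 CPM at P6 and 347 CPM at 8 weeks, and Itgam 158 and 484 CPM. After myeloid scaling 7 of the 10 were called higher and 3 lower at 8 weeks than at P6. Values under this scaling are thus relative to the mean of these genes only. In these bulk samples, fewer cells of a type and less RNA per cell cannot be told apart.

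Between P6 and 8 weeks, Fcgr1, Fcgr2b, Fcgr3 and Fcrls rose, Fcgrt fell, and Fcer1g and Fcgr4 did not pass the test. With the edgeR quasi-likelihood test and Benjamini-Hochberg adjusted p-values (FDR) below 0.05, 4 genes were higher and 0 lower at P15 than at P6, where 30.4% of all 17612 tested genes were higher and 31.4% lower. At 8 weeks against P15, 2 were higher and 2 lower (24.0% and 23.9% of all genes). At 8 weeks against P6, 4 were higher and 1 lower (37.8% and 36.6% of all genes). The medians over the 7 genes were log2FC 0.53, 0.22 and 0.49, against -0.01, 0.02 and 0.04 over all genes. Past a 2-fold threshold (edgeR's glmTreat), no member was called at P15 against P6, where 4.87% of all genes were higher and 4.85% lower. None was called at 8 weeks against P15 either (1.20% higher and 3.07% lower), and Fcgr1 and Fcgr2b were called higher at 8 weeks than at P6 (11.5% higher and 12.4% lower). With myeloid scaling, 2 members were higher and 4 lower at P15 than at P6, where 6.53% of all genes were higher and 71.2% lower. In the same scaling 1 was higher and 2 lower at 8 weeks than at P15 (8.41% and 41.9% of all genes), and 2 were higher and 4 lower at 8 weeks than at P6 (8.79% and 74.8% of all genes).

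**Figure D1:**
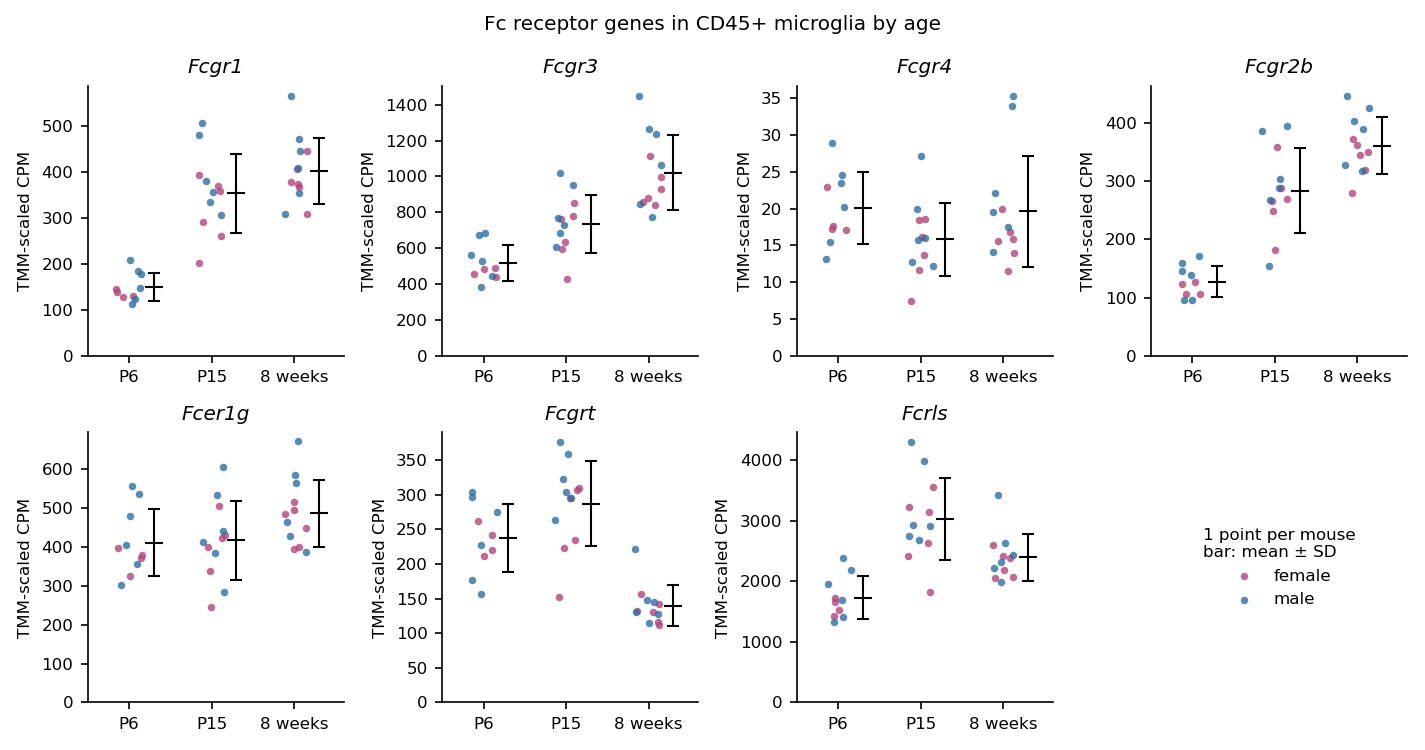
TMM-scaled CPM (y axis, from 0) of the 7 Fc receptor genes in 34 mice at P6, P15 and 8 weeks, with 1 point per mouse coloured by sex and a black bar for the mean ± SD of each age. All 8-week mice lay above all P6 mice for Fcgr1, Fcgr3 and Fcgr2b, whereas the ages overlapped for Fcgr4, Fcer1g, Fcgrt and Fcrls.

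Fcgr1 encodes the high-affinity activating receptor. Its level was 113 CPM in the lowest P6 mouse, 141 at the median and 208 in the highest. At P15 these values were 201, 357 and 505 CPM, and at 8 weeks 308, 392 and 563 CPM. The P6 and P15 mice overlapped only through the lowest P15 mouse, female 2, at 201 CPM, and the 8-week mice all exceeded the P6 mice. The means were 149 ± 30.8 CPM at P6 (SD, n = 10), 353 ± 85.2 at P15 (n = 12) and 402 ± 72.1 at 8 weeks (n = 12). Fcgr1 rose by log2FC 1.26 ± 0.13 (SE) from P6 to P15 (FDR = 3.74e-10), and the further difference of 0.20 at 8 weeks did not pass the test (FDR = 0.155). Against P6 the 8-week mice were higher by 1.45 ± 0.13 (FDR = 7.84e-12, and 0.000483 past 2-fold). With myeloid scaling the rises were 0.40 (FDR = 2.91e-07) and 0.34 (FDR = 2.67e-06), so the direction held and the size shrank. With the level of neuronal and progenitor markers as a covariate the rise to P15 was 0.78 (FDR = 9.83e-08), the difference from P6 to 8 weeks was 0.35 (FDR = 0.110), and 8 weeks was lower than P15 (-0.43, FDR = 0.00383). The P6 and 8-week mice did not overlap in this covariate. For all members, its values for 8 weeks against P6 therefore cannot separate it from age.

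Fcgr3, the low-affinity activating receptor, was the most abundant of the IgG receptors in CPM. The lowest, median and highest mice had 386, 486 and 685 CPM at P6, 431, 746 and 1018 CPM at P15, and 772, 964 and 1451 CPM at 8 weeks. The P15 mice overlapped both other ages, and the 8-week and P6 mice did not overlap. Its mean went from 516 ± 99.5 to 734 ± 161 and 1021 ± 209 CPM. Unlike Fcgr1, Fcgr3 passed the test in both intervals, with log2FC 0.53 ± 0.12 to P15 (FDR = 0.000425) and 0.48 ± 0.12 from P15 to 8 weeks (FDR = 0.00115). The direction of its change since P6 depended on the scaling: it was 1.01 higher at 8 weeks with TMM (FDR = 1.53e-08) and -0.11 with myeloid scaling (FDR = 0.101), and at P15 it was -0.33 with myeloid scaling (FDR = 1.52e-05). Its rise from P15 to 8 weeks was called under both scalings (0.22 with myeloid scaling, FDR = 0.00218). With the level of neuronal and progenitor markers as a covariate, which at P6 and 8 weeks cannot be told apart from age, that difference was -0.11 (FDR = 0.498) and neither change since P6 was called (0.079 and -0.035).

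Fcgr4, an activating receptor that binds IgG2a and IgG2b, was the least abundant member. Its counts were between 248 and 941 fragments per library, well above the floor of 3 counts. The lowest, median and highest levels were 13.2, 19.0 and 28.9 CPM at P6, 7.42, 15.9 and 27.1 CPM at P15, and 11.5, 17.1 and 35.3 CPM at 8 weeks, so all ages overlapped. The highest 8-week values, 35.3 and 33.9 CPM, came from males 4 and 6. No age comparison passed the test with TMM: log2FC was -0.33 ± 0.17 at P15 against P6 (FDR = 0.0943), 0.29 ± 0.16 at 8 weeks against P15 (FDR = 0.141) and -0.04 ± 0.17 at 8 weeks against P6 (FDR = 0.834). Scaling by library size alone, which moved the median of all genes to -0.14, gave -0.47 at P15 against P6 (FDR = 0.00629). Myeloid scaling gave -1.20 at P15 (FDR = 5.21e-11) and -1.15 at 8 weeks (FDR = 6.38e-11), both against P6. With the neuronal and progenitor covariate Fcgr4 was called lower in all 3 comparisons, at -1.003 for P15 against P6 (FDR = 3.49e-06), -0.56 for 8 weeks against P15 (FDR = 0.0141) and -1.57 for 8 weeks against P6 (FDR = 2.18e-05). Neutrophils also express Fcgr4. The 7 neutrophil markers summed to 164 to 269 CPM at P6, 395 to 813 at P15 and 734 to 1187 at 8 weeks, but most of this was Csf3r (887 ± 88.2 CPM at 8 weeks), which microglia also express. Of these markers 6 passed the filter, with 4 higher and 1 lower at 8 weeks than at P6. S100a8 and S100a9 averaged 5.95 and 8.64 CPM at P6 and 29.3 and 44.0 CPM at 8 weeks, and Ly6g averaged 0.0887 and 0.356 CPM. Mmp9 went from 18.6 to 11.7 CPM and Camp from 1.23 to 0.810 CPM between the same ages. Their part in the Fcgr4 level was not tested.

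Fcgr2b, the inhibitory receptor, changed much as Fcgr1 did. The lowest, median and highest mice had 95.7, 126 and 171 CPM at P6, 154, 278 and 395 CPM at P15, and 279, 356 and 446 CPM at 8 weeks. P6 and P15 overlapped only through the lowest P15 mouse, male 1, at 154 CPM, and P6 and 8 weeks did not overlap. The means were 127 ± 26.6, 284 ± 72.6 and 361 ± 48.5 CPM. Fcgr2b rose by log2FC 1.18 ± 0.13 from P6 to P15 (FDR = 3.65e-09) and by 1.53 ± 0.13 from P6 to 8 weeks (FDR = 8.45e-12, and 0.000167 past 2-fold). The rise of 0.35 ± 0.12 from P15 to 8 weeks (FDR = 0.0189) rested on P15 male 1, and without this mouse it was 0.25 (FDR = 0.0542). With myeloid scaling the rises from P6 were 0.31 (FDR = 4.65e-06) and 0.42 (FDR = 1.56e-08), and that from P15 to 8 weeks was 0.11 (FDR = 0.0687). With the neuronal and progenitor covariate, Fcgr2b was 0.63 higher at P15 than at P6 (FDR = 1.63e-06), lower at 8 weeks than at P15 (-0.36, FDR = 0.00921), and at 0.27 between P6 and 8 weeks (FDR = 0.197). P15 male 1 stood at the edge of the P15 mice on several marker lists. It had the lowest sums of monocyte and border-associated macrophage markers (289 CPM, median 859), of microglial markers (11877, median 17490) and of neutrophil markers (395, median 515), and the highest of neuronal (692, median 315) and progenitor markers (844, median 326). The part of these in its Fcgr2b level was not tested.

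Fcer1g, the signalling chain, did not pass the test in any age comparison with TMM. The lowest, median and highest mice had 302, 387 and 556 CPM at P6, 244, 417 and 604 CPM at P15, and 386, 474 and 672 CPM at 8 weeks, and all ages overlapped. Its means were 410 ± 85.9, 416 ± 101 and 486 ± 86.7 CPM. The edgeR test gave log2FC 0.05 ± 0.13 at P15 against P6 (FDR = 0.756), 0.22 ± 0.12 at 8 weeks against P15 (FDR = 0.124) and 0.27 ± 0.13 at 8 weeks against P6 (FDR = 0.0556). The last value lay close to the threshold, and it was called with P6 female 6 included (0.35, FDR = 0.0232) and with the 2 ages fitted alone (0.27, FDR = 0.0269). Myeloid scaling turned the differences from P6 to -0.82 at P15 (FDR = 1.61e-14) and -0.84 at 8 weeks (FDR = 3.02e-15), so that Fcer1g fell relative to the 10 macrophage-lineage genes. With the neuronal and progenitor covariate it was also lower, at -0.46 (FDR = 0.000536) and -0.89 (FDR = 0.000189).

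Fcgrt, encoding the FcRn heavy chain, was the only member that fell from P6 to 8 weeks under TMM scaling. The lowest, median and highest mice had 156, 235 and 304 CPM at P6, 152, 300 and 376 CPM at P15, and 112, 131 and 221 CPM at 8 weeks. The highest 8-week mouse, male 4, stood at 221 CPM, and the next at 157 CPM. The means were 237 ± 48.7, 287 ± 61.1 and 140 ± 29.2 CPM. The P15 level differed from P6 by log2FC 0.27 ± 0.13 (FDR = 0.0660), and Fcgrt then fell by 1.03 ± 0.12 on the log2 scale to 8 weeks (FDR = 3.36e-08). It fell by 0.76 ± 0.12 from P6 to 8 weeks (FDR = 2.17e-06). With myeloid scaling both falls were larger, at -1.30 (FDR = 1.13e-13) and -1.87 (FDR = 2.30e-18), and P15 was below P6 at -0.57 (FDR = 1.13e-06). The fall from P15 to 8 weeks was thus called in the same direction under both scalings. With the neuronal and progenitor covariate the falls were -1.55 from P15 (FDR = 1.44e-09) and -1.67 from P6 (FDR = 3.80e-07), and P15 against P6 was at -0.11 (FDR = 0.484). Of the 9 markers of monocytes and border-associated macrophages, 6 fell and 2 rose between P15 and 8 weeks, and their sums had medians of 975, 859 and 482 CPM at the 3 ages. The 6 lower ones were Mrc1, Pf4, F13a1, Cd163, Lyve1 and Ms4a7, whereas the monocyte markers Ccr2 (1.64, 4.41 and 13.5 CPM) and Ly6c2 (0.556, 0.928 and 3.64 CPM) were higher. Their part in the Fcgrt level was not tested. B2m, the light chain that FcRn needs, did the opposite with TMM, from 697 ± 158 CPM at P6 to 1122 ± 145 CPM at 8 weeks (log2FC 0.74, FDR = 1.52e-05), and was lower with myeloid scaling (-0.36, FDR = 5.65e-05).

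Fcrls was the most abundant member and peaked at P15. The lowest, median and highest mice had 1321, 1676 and 2392 CPM at P6, 1829, 2923 and 4313 CPM at P15, and 1992, 2355 and 3434 CPM at 8 weeks, with overlap between all ages. The means were 1730 ± 353, 3036 ± 681 and 2396 ± 387 CPM. Fcrls rose by log2FC 0.83 ± 0.12 from P6 to P15 (FDR = 6.72e-07) and then fell by 0.34 ± 0.11 to 8 weeks (FDR = 0.0144), ending 0.49 ± 0.12 above P6 (FDR = 0.000523). With myeloid scaling P15 did not differ detectably from P6 (-0.019, FDR = 0.750), and 8 weeks was lower than P15 (-0.60, FDR = 3.50e-11) and than P6 (-0.61, FDR = 2.67e-12). Its fall after P15 was called under both scalings. With the neuronal and progenitor covariate 8 weeks was lower than P6 (-0.60, FDR = 0.00311), and the rise to P15 was 0.36 (FDR = 0.00165).

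**Figure D2:**
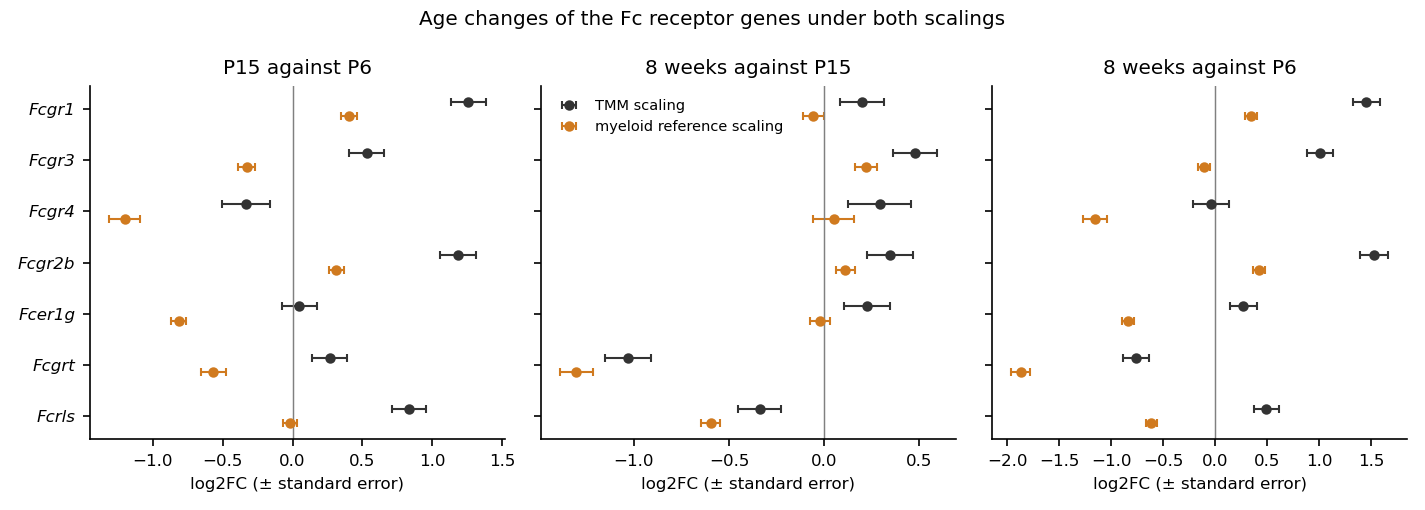
The log2FC ± SE (x axis) of each Fc receptor gene (y axis) in the 3 age comparisons, with TMM scaling in black and myeloid reference scaling in orange. Against P6, the points of Fcgr1 and Fcgr2b were above 0 and those of Fcgr4 below 0 under both scalings, while those of Fcgr3, Fcer1g and Fcrls changed sign, as did Fcgrt at P15.

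Levels of different genes can be compared only per length, as CPM per kb of exon. At P6 the order was Fcrls (741 ± 151 CPM per kb), Fcer1g (470 ± 98.3), Fcgr3 (297 ± 57.3), Fcgrt (113 ± 23.2), Fcgr1 (57.7 ± 11.9), Fcgr2b (21.9 ± 4.60) and Fcgr4 (15.98 ± 3.85). This order held within each of the 10 mice, although the ranges over mice overlapped between neighbours except from Fcgr3 to Fcgrt and from Fcgr1 to Fcgr2b. At P15 Fcrls reached 1301 ± 292, Fcer1g 476 ± 116 and Fcgr3 423 ± 93.0 CPM per kb. Fcgrt and Fcgr1 were level there, at 136 ± 29.1 and 136 ± 32.9 CPM per kb, with Fcgrt the higher in 5 of 12 mice, and Fcgr2b stood at 49.1 ± 12.5 and Fcgr4 at 12.6 ± 3.98. At 8 weeks Fcgr3 (588 ± 121) stood beside Fcer1g (556 ± 99.2), above it in 9 of 12 mice. Fcgr1 (155 ± 27.8) stood above Fcgrt (66.4 ± 13.9) in all 12 mice without overlap, and Fcgrt could not be told from Fcgr2b (62.4 ± 8.38) by their ranges. Fcgr4 remained last, at 15.7 ± 6.00 CPM per kb. Several of these neighbours depended on the length used, which was that of all exons of a gene. Per kb of the longest transcript, Fcgrt was at 162 ± 34.5 and Fcgr1 at 136 ± 32.9 at P15. At 8 weeks Fcgr2b (102 ± 13.7) then stood above Fcgrt (78.9 ± 16.5), and the ranges of Fcgr1 and Fcgrt overlapped. The order of the means at P6 was the same with either length, but there Fcgr1 overlapped Fcgr2b, and Fcgr2b (27.01 to 48.3) did not overlap Fcgr4 (10.5 to 23.04).

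**Figure D3:**
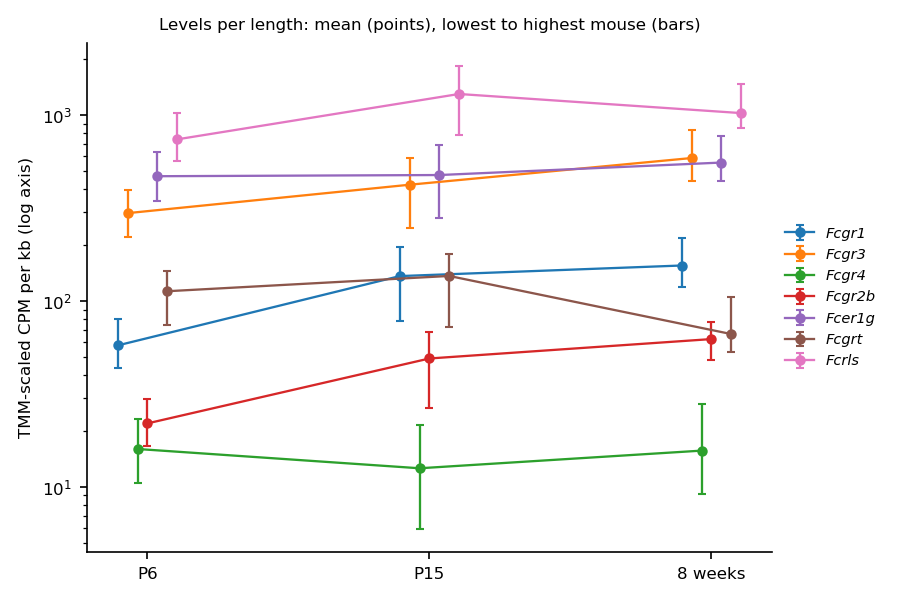
Mean TMM-scaled CPM per kb of exon (y axis, log scale) of the 7 genes at P6, P15 and 8 weeks, with bars from the lowest to the highest mouse. Fcrls was highest and Fcgr4 lowest at every age, Fcgr3 came level with Fcer1g, and Fcgrt moved from above Fcgr1 at P6 to below it at 8 weeks.

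Ratios of members within a mouse do not depend on how its library was scaled, and they are given as descriptions without a test. The sum of the activating receptors Fcgr1, Fcgr3 and Fcgr4 over the inhibitory Fcgr2b, per length, was 17.0 ± 0.975 at P6 (lowest 15.8, highest 18.9). It was 11.9 ± 2.03 at P15 (10.5 to 17.9) and 12.1 ± 1.24 at 8 weeks (10.5 to 14.04). Every 8-week mouse lay below every P6 mouse, and P15 male 1, at 17.9, was the only P15 mouse inside the P6 range. Fcgr3 over Fcgr2b followed, at 13.6 ± 0.877, 8.79 ± 1.45 and 9.38 ± 0.983. Fcgr1 over Fcgr2b was similar at each age, at 2.64 ± 0.184, 2.83 ± 0.546 and 2.49 ± 0.258. Within the activating receptors, Fcgr1 over Fcgr3 was 0.194 ± 0.0137, 0.321 ± 0.0141 and 0.266 ± 0.0175, and the P6 mice (0.170 to 0.213) lay below all older mice. Fcgr4 over Fcgr3 went from 0.0535 ± 0.00590 at P6 to 0.0293 ± 0.00340 and 0.0261 ± 0.00545, and all P6 mice (0.0471 to 0.0644) lay above all older mice.

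The signalling chain was also set against the receptors that use it. Fcer1g over the sum of the activating receptors was 1.26 ± 0.0514 at P6, 0.833 ± 0.0632 at P15 and 0.736 ± 0.0462 at 8 weeks. The lowest P6 mouse, at 1.17, lay above the highest P15 mouse, at 0.935, and the P15 and 8-week mice overlapped. Fcrls over Fcgrt was 6.62 ± 0.776, 9.59 ± 0.872 and 15.6 ± 1.19. For this ratio the 8-week mice (13.02 to 16.9) lay above all younger mice, while P6 (5.67 to 8.11) and P15 (7.72 to 10.8) overlapped slightly.

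**Figure D4:**
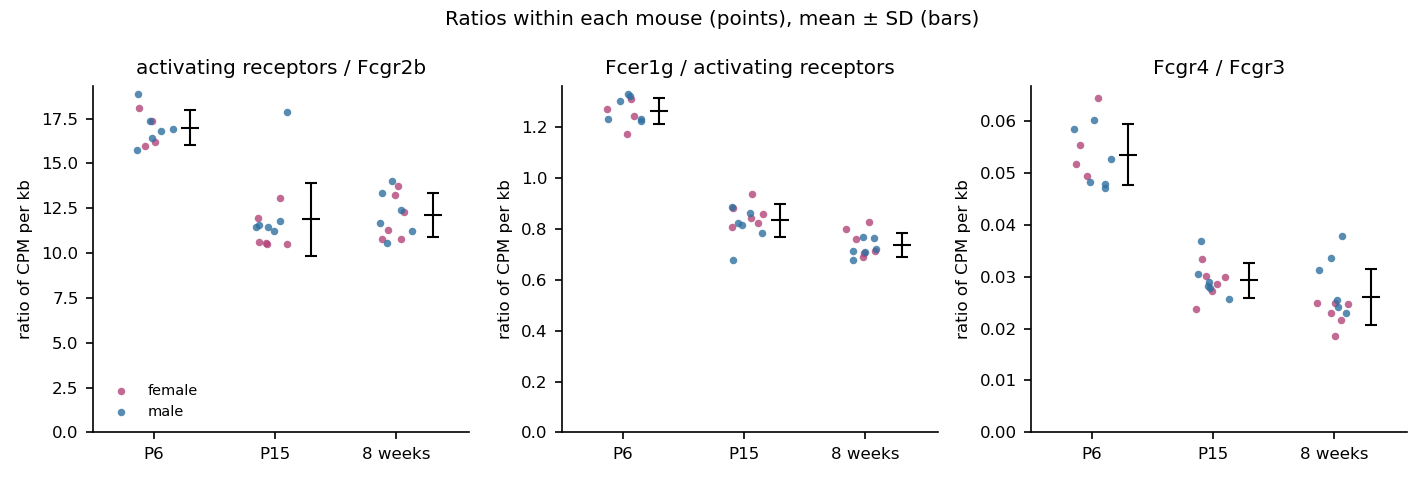
Ratios of TMM-scaled CPM per kb (y axis, from 0) within each mouse at P6, P15 and 8 weeks, coloured by sex, with bars for the mean ± SD. For Fcer1g over the activating receptors and for Fcgr4 over Fcgr3, every P6 mouse lay above every older mouse, and for activating receptors over Fcgr2b the single high P15 point, 17.9, is male 1.

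Fcgr3 and Fcgr2b are near-identical over part of their sequence, which can split reads between them. Of the 100-base windows of the transcript Fcgr3-201, 44 of 1248 (3.53%) were also found in Fcgr2b, and of those of Fcgr2b-201, 122 of 3445 (3.54%) were found in another gene, 44 of them in Fcgr3. No 100-base window of the other 5 members was found in another gene. With 50-base windows 12.8% of those of Fcgr3-201 and 11.4% of those of Fcgr2b-201 were found in another gene, 166 of them common to both. How far such reads affect the Fcgr3 over Fcgr2b ratio was not tested.

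Several mice were high or low for most members together. At 8 weeks male 4 was the highest mouse for all 7 genes, and at P15 male 6 was the highest for all 7. P15 female 2 was the lowest P15 mouse for every member but Fcgr2b, and its astrocyte and oligodendrocyte markers, at 6488 CPM, were the highest of all P15 mice. Without P15 male 1 and P15 female 2, the 8-week rise of Fcgr2b over P15 was 0.23 (FDR = 0.0525), Fcgrt was called higher at P15 than at P6 (0.32, FDR = 0.0203), and Fcer1g was called higher at 8 weeks than at P6 (0.27, FDR = 0.0242). The part of the neural RNA in these levels was not tested mouse by mouse.

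The sexes were compared within each age. All 21 log2FC of the 7 genes were on the male side, from 0.03 to 0.60, although Fcgrt at P6 ran from -0.027 to 0.080 when each P6 female was left out in turn, below 0 without female 2 and without female 3, and was also below 0 with limma-voom and with the replicate block. None passed the edgeR test, whose smallest FDR was 0.271. The unadjusted p was under 0.05 for 2 of them, Fcgr1 at P15 (0.33 ± 0.16, FDR = 0.271) and Fcgr4 at 8 weeks (0.60 ± 0.23, FDR = 1). Fcgr4 at 8 weeks was 11.5, 15.7 and 19.9 CPM in the lowest, median and highest females and 14.1, 20.8 and 35.3 CPM in the males, and the sexes overlapped. Among all genes 0.0511% were called between the sexes at P6, 0.0681% at P15 and 0.114% at 8 weeks. The summed level of the 10 macrophage-lineage genes, given without a test, overlapped between the sexes at every age, with means of 12326 ± 1141 CPM in females (n = 4) and 14760 ± 3657 in males (n = 6) at P6, 26739 ± 5596 and 31681 ± 7335 at P15, and 31214 ± 3530 and 33073 ± 4830 at 8 weeks. The part of this sum in the male-sided values was not tested. The age changes of the members did not differ detectably between sexes, with FDR from 0.743 to 0.999 for the interaction, which was called for 0% of all genes by edgeR (2083 genes at an unadjusted p under 0.05).

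The rest of the Fc receptor pathway was followed through gene lists. Downstream of the ITAM, 21 of 24 tested kinases, adaptors and effectors were higher and 0 lower at 8 weeks than at P6 with TMM, and 6 were higher and 15 lower with myeloid scaling. Over all genes these shares were 37.8% higher and 36.6% lower with TMM, and 8.79% higher and 74.8% lower with myeloid scaling. Each list count that follows is to be read against these shares. The largest rises were those of the Src-family kinase Fgr (log2FC 2.18, from 2.76 to 13.1 CPM), the phosphoinositide 3-kinase subunit Pik3r5 (1.96, from 39.7 to 150 CPM) and the adaptor Lat2 (1.63, from 36.3 to 111 CPM). All 3 were also higher with myeloid scaling (1.06, 0.86 and 0.52). The list's median was 0.78 with TMM and -0.33 with myeloid scaling, beside 0.04 and -1.09 over all genes.

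Of the 12 genes of the inhibitory arm, 9 were higher and 2 lower at 8 weeks than at P6 with TMM, and 4 higher and 7 lower with myeloid scaling (medians 0.57 and -0.53, against 0.04 and -1.09 over all genes). The adaptor Pag1, which recruits the kinase Csk, rose from 99.9 ± 17.6 to 534 ± 92.4 CPM (log2FC 2.46, FDR = 6.57e-17, and 1.35 with myeloid scaling). The adaptor Dok3 rose from 23.9 to 63.1 CPM, and the phosphatase gene Ptpn22 from 2.53 to 6.93 CPM (0.31 and 0.39 with myeloid scaling). The phosphatase gene Ptpn11 fell from 153 ± 9.09 to 91.9 ± 4.60 CPM (log2FC -0.74, FDR = 8.30e-15), and the adaptor Dok2 fell from 15.5 ± 3.09 to 5.77 ± 1.44 CPM (-1.44, FDR = 1.51e-10). Both were also lower with myeloid scaling (-1.87 and -2.55).

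Among 22 actin and NADPH oxidase effectors of phagocytosis, 12 were higher and 4 lower with TMM, and 2 higher and 17 lower with myeloid scaling (medians 0.47 and -0.64, against 0.04 and -1.09 over all genes). The lower count with myeloid scaling is close to the 74.8% of all genes that were lower. The phospholipase Pld1 rose from 45.5 to 137 CPM (log2FC 1.64), and it was higher with myeloid scaling too (0.54). The oxidase subunit Ncf4 rose by 1.34 with TMM and was also higher with myeloid scaling (0.24, FDR = 0.00285). The subunit Ncf1 rose by 1.09 with TMM and was at -0.01 with myeloid scaling (FDR = 0.863). The Arp2/3 subunit Arpc1b fell from 542 to 313 CPM (-0.78) and the GTPase Rac2 from 230 to 157 CPM (-0.53), and both were lower with myeloid scaling as well (-1.88 and -1.64). Gsn fell from 34.5 to 24.8 CPM (-0.50, and -1.61 with myeloid scaling).

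**Figure D5:**
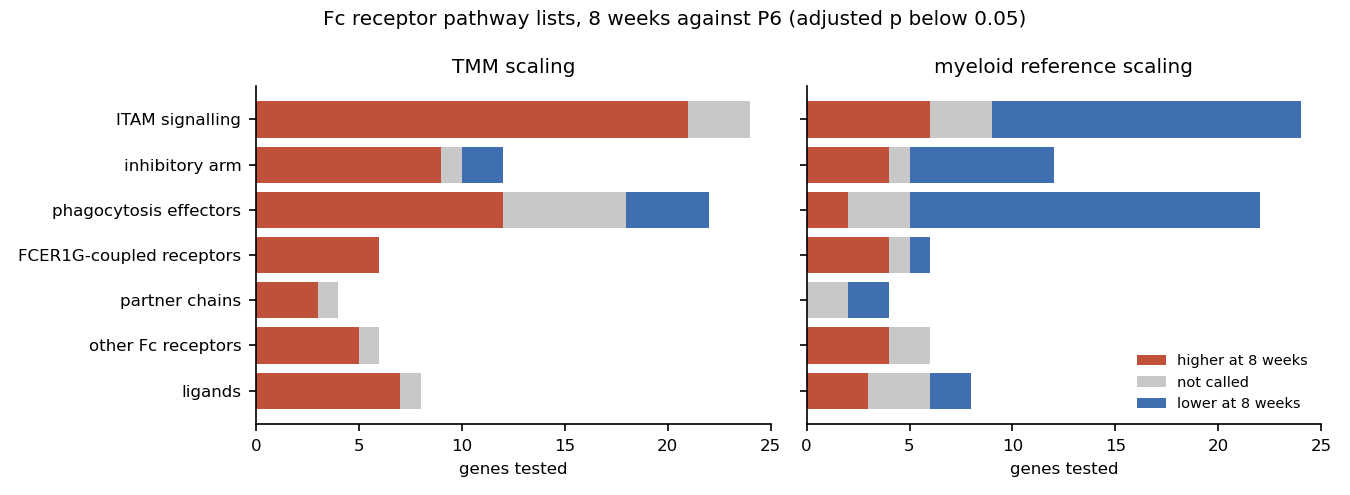
Number of tested genes (x axis) of 7 Fc receptor pathway lists (y axis) that were higher, lower or not called at 8 weeks against P6 by the edgeR test, with TMM scaling on the left and myeloid reference scaling on the right. ITAM signalling went from 21 higher and 0 lower to 6 higher and 15 lower, and phagocytosis effectors from 12 and 4 to 2 and 17.

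Of 9 other receptors listed as signalling through the γ chain, 6 passed the filter and all 6 were higher at 8 weeks than at P6 with TMM. With myeloid scaling 4 were higher and 1 lower (medians 1.89 and 0.78, against 0.04 and -1.09 over all genes). The lectin receptor Clec4e averaged 0.884, 0.513 and 3.37 CPM at P6, P15 and 8 weeks. At 8 weeks it was above P6 by log2FC 1.91 (0.78 with myeloid scaling, FDR = 0.0461). Against P15 it was higher by 2.599 (FDR = 8.50e-08, and 2.24 with myeloid scaling). The natural killer receptor Ncr1 averaged 0.0419, 0.0929 and 1.40 CPM (8 weeks against P6 with myeloid scaling, 3.91). Of the 4 partner chains 3 were higher and 0 lower with TMM, and 0 higher and 2 lower with myeloid scaling (medians 0.92 and -0.17). Tyrobp (DAP12), the other major ITAM adaptor of microglia, was at 646 ± 116, 740 ± 159 and 741 ± 141 CPM and did not pass the test between P6 and 8 weeks with TMM (0.21, FDR = 0.104), whereas with myeloid scaling it was lower (-0.898, FDR = 1.85e-12). With all 35 mice, 4 of the 4 partner chains were higher.

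Of 12 other Fc receptor and Fc receptor-like genes, 6 passed the filter, of which 5 were higher and 0 lower at 8 weeks than at P6 with TMM and 4 higher and 0 lower with myeloid scaling (medians 1.80 and 0.70). Fcrl1 had the highest level, at 10.9 ± 3.73 CPM at P6, 31.0 ± 6.03 at P15 and 41.7 ± 3.93 at 8 weeks (P6 to 8 weeks, log2FC 2.02, FDR = 2.78e-15, and 0.93 with myeloid scaling). The P6 mice, from 5.92 to 18.0 CPM, lay below all older mice, from 21.3 to 47.8 CPM. The cytosolic antibody receptor Trim21 rose from 7.005 ± 1.83 to 19.8 ± 2.90 CPM (1.58, and 0.47 with myeloid scaling). The IgM receptor Fcmr averaged 0.553, 1.69 and 2.96 CPM and the low-affinity IgE receptor Fcer2a 0.215, 0.527 and 2.87 CPM (8 weeks against P6 with myeloid scaling, 1.33 and 2.75). The subunits of the high-affinity IgE receptor, Fcer1a and Ms4a2, did not pass the filter and had at most 11 and 19 counts in a library.

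The antibody genes themselves were also counted. None of the IgG heavy chains Ighg1, Ighg2b, Ighg2c and Ighg3 passed the filter, with at most 28 counts in any library, and Ighe had 0 counts in all mice. Of 13 listed ligand genes, 8 passed, of which 7 were higher and 0 lower at 8 weeks than at P6 with TMM, and 3 higher and 2 lower with myeloid scaling (37.8% and 36.6%, and 8.79% and 74.8%, of all genes). Ighm, the IgM heavy chain, was by far the highest, at 336 ± 82.0, 344 ± 83.1 and 410 ± 53.3 CPM, whereas the κ light chain Igkc averaged 2.77, 6.16 and 7.85 CPM. From P6 to 8 weeks Ighm was higher with TMM (0.32, FDR = 0.0166) and lower with myeloid scaling (-0.78, FDR = 9.54e-17), and Igkc was higher with TMM (1.59) and not called with myeloid scaling (0.52, FDR = 0.0885). The 10 lymphocyte markers summed to between 20.5 and 91.7 CPM over all mice, and 9 of them were higher and 1 lower at 8 weeks than at P6 with TMM (median log2FC 1.49, and 5 higher and 1 lower with myeloid scaling). Cd79a averaged 2.71, 7.45 and 6.76 CPM and Nkg7 0.272, 0.640 and 3.75 CPM at the 3 ages. The part of lymphocytes in the levels of Fcrl1, Fcmr, Fcer2a, Ncr1 and the antibody genes was not tested. Igha had 0 counts in all P6 mice, 0 to 17 counts at P15 and 23 to 287 counts at 8 weeks, so no median is given for this list.

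The genes most like each member were sought among 11581 genes averaging at least 5 CPM, by the root mean square (RMS) difference of log2 CPM over the 34 mice after centring each gene. The 3 genes nearest to Fcgr1 included Tspan14 (RMS 0.104) and Tcn2 (0.114), and those nearest to Fcgr2b included Ifngr1 (0.108) and Cmtm6 (0.129). Fcgr1 was the 21st nearest gene to Fcgr2b, and Fcgr2b the 63rd nearest to Fcgr1 (RMS 0.184). Fcgr3 was nearest to Trpv2 (0.113), Dhrs3 and Rgs10, and Fcrls to P2ry6 (0.0984), Man2b1 and Scamp2. The gene nearest to Fcer1g was Ighm (0.116), before Ostf1 (0.127) and Aif1 (0.129). Fcgrt and Fcgr4 had looser matches, Mpi (0.201), Plekhg5 and Nrm for Fcgrt, and Ctsz (0.242), Arhgdib and Aldh3b1 for Fcgr4. Aif1 belongs to the 10 genes of the myeloid scaling, and all mice share the age differences, so likeness here is a description.

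Between the outer ends of Fcgr2b and Fcer1g, 17 genes are annotated, of which 9 passed the filter, 4 of them members. Of the others, 4 are given for comparison. Sdhc, a subunit of a mitochondrial enzyme, fell by 0.59 on the log2 scale from P6 to 8 weeks (FDR = 7.41e-07), where Fcgr2b and Fcgr3 rose. Pcp4l1 rose by 0.67 (FDR = 0.00504), and Tomm40l (-0.20, FDR = 0.0650) and Cfap126 (0.10, FDR = 0.540) did not pass the test. With myeloid scaling Sdhc (-1.71), Tomm40l (-1.33) and Cfap126 (-1.02) were lower, and Pcp4l1 was at -0.42 (FDR = 0.135).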

How the data were processed

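Whole brains were digested to single cells and CD45+ cells were collected by immunopanning, with 1 directional mRNA library per mouse. The authors aligned paired-end reads to GRCm38/mm10 with STAR and counted fragments by strand with featureCounts. The submitters' notes also name Subread and fastp 0.20.0. The authors deposited raw counts per gene, unfiltered and not normalised, with 1 column per mouse. The annotation release is not given in the sources used here, and genes were named from GENCODE M21 (55141 of 55401 identifiers matched). Promoter sequences are from RefSeq (GRCm38.p6), where all 7 members were found.

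Counts were analysed with edgeR 4.0.16 in R 4.3.3. The filter kept the 17612 genes that reached 0.5 CPM in 5 mice or more, libraries were scaled by TMM, and 1 mean for each of 6 age and sex groups was fitted to 34 mice (glmQLFit, robust). Age contrasts averaged the sexes. Tests were two-sided, adjusted over all tested genes and called at an adjusted p below 0.05. On simulated counts for 8 weeks against P6, 93% of 200 genes changed 2-fold were recovered among 17612, with 2 false calls. In the data 13098 genes were called for this comparison, so the simulation does not show the error when most genes change. Per-gene plots and summaries used Python 3.11.15, numpy 2.4.6, pandas 2.3.3 and matplotlib 3.10.9. Alternatives also used limma 3.58.1 and DESeq2 1.42.0.

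A level of 3 counts, used as a floor for counting error alone, was between 0.0770 and 0.129 CPM. No pair of libraries within a group was a copy (lowest chi-square per gene 11.8 over 85 pairs). The labels do not say whether mice shared litters or batches. P6 female 6 entered only an alternative, and a further P6 female has no library in the files used here.

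The members, lists and tests were chosen with earlier results of these data known. The rule for genes named in the text took the 7 members, the 3 largest called rises and falls from P6 to 8 weeks in each pathway list, the Fc receptor, ligand and partner lists, the 3 genes most like each member, and tested genes between Fcgr2b and Fcer1g. Of the genes within this rule and the lists, 2 are not reported here. Marker genes were named from marker lists. The lists whose sums at all 3 ages were not given above were mast cells and basophils (median sums of 47.2, 17.4 and 15.9 CPM at P6, P15 and 8 weeks), neurons (692, 315 and 110 CPM) and endothelial cells (73.7, 148 and 156 CPM).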

Additional observations from a re-analysis of the deposited data

Results flagged for a closer look

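Within groups of 4 to 6 mice, 4 of 54 groups tested held a mouse that stood apart from the others by Dixon's criterion at 95%, and chance alone marks about 1 group in 20. Fcgr4 in P6 female 5 was 22.9 CPM, beside 17.1 to 17.7 CPM in the other P6 females. Fcgrt in 8-week male 4 was 221 CPM, beside a highest value of 148 CPM in the other males. In P15 male 1 the log2 ratio per length of Fcgr3 over Fcgr2b was 3.71, beside at most 3.10 in the other P15 males, and that of the summed activating receptors over Fcgr2b was 4.16, beside at most 3.56. Both ratios of this mouse share its Fcgr2b level of 154 CPM and are thus not separate observations.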

How the results depend on the processing

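Of the 21 age results of single members, all 21 kept their call, and those called their direction, with DESeq2 size factors, limma-voom, a minimum of 10 counts in each mouse, no filter at all, the DESeq2 Wald test and age without sex, and likewise without each P6 female in turn, where the uncalled Fcer1g difference at P15 against P6 turned to -0.0016 without P6 female 2. The replicate numbers did not pair the mice: of 32 same-numbered pairs 13 correlated above 0.1 (median 0.0789, range -0.30 to 0.57, against a median of -0.01 in 160 other pairs), and with the replicate block 21 of 21 calls were as without it, with members called at P15 against P6 at 4 higher and 0 lower. With library size scaling 1 member, Fcgr4, was lower at P15 than at P6. With all 35 mice Fcgrt (P15 against P6, 0.34, FDR = 0.0309) was also called higher. Uncalled values that changed sign were Fcer1g with library size scaling (-0.085, P15 against P6) and Fcgr4 with all 35 mice (0.056, 8 weeks against P6). With the 2 ages fitted alone, Fcer1g at 8 weeks against P6 was called (0.27, FDR = 0.0269).

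With myeloid scaling, member counts became 2 higher and 4 lower (P15 against P6), 1 higher and 2 lower (8 weeks against P15), and 2 higher and 4 lower (8 weeks against P6). Those that reversed, with a call in either fit, were Fcgr3 (-0.33), Fcer1g (-0.82), Fcgrt (-0.57) and Fcrls (-0.019) at P15 against P6, and Fcgr3 (-0.11), Fcer1g (-0.84) and Fcrls (-0.61) at 8 weeks against P6, and the uncalled Fcgr1 (-0.058) and Fcer1g (-0.022) at 8 weeks against P15 also changed sign. With neuronal and progenitor marker level as a covariate, 3 members were higher (Fcgr1 0.78, Fcgr2b 0.63 and Fcrls 0.36) and 2 lower at P15 than at P6, 0 were higher and 6 lower at 8 weeks than at P15, and 0 were higher and 4 lower at 8 weeks than at P6. Reversed were Fcer1g (-0.46) and the uncalled Fcgrt (-0.11) at P15 against P6, Fcgr1 (-0.43), Fcgr3 (-0.11), Fcgr4 (-0.56), Fcgr2b (-0.36) and Fcer1g (-0.43) at 8 weeks against P15, and Fcgr3 (-0.035), Fcer1g (-0.89) and Fcrls (-0.60) at 8 weeks against P6. Among all genes 9355, 6986 and 8602 were then called, of which 51.3%, 50.1% and 51.8% were higher. This covariate ran from 4.75 to 6.47 at P6, from 2.83 to 5.60 at P15 and from 1.83 to 3.42 at 8 weeks. P15 overlapped both other ages. P6 and 8 weeks did not overlap, so between these ages the covariate and age cannot be told apart. Fcgr1 (0.35) and Fcgr2b (0.27) then kept their direction at 8 weeks against P6 without passing the test (FDR = 0.110 and 0.197). Fcgrt kept a called fall after P15 under every scaling and test above without a fold threshold.

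Past a 2-fold threshold the member counts were 0 higher at P15 against P6, 0 higher and 0 lower at 8 weeks against P15, and 2 higher and 0 lower at 8 weeks against P6, and 1713, 751 and 4200 genes were called among all genes. Without P15 male 1, and without P15 male 1 and female 2 together, both added after seeing the data, 1 member was higher at 8 weeks than at P15. Between the sexes 0 of 21 member results were called in any of the 12 settings run, and the DESeq2 Wald test called 16, 36 and 48 genes among all genes at P6, P15 and 8 weeks, against 9, 12 and 20 with edgeR. With the longest transcript as length, log2 Fcgr3 over Fcgr2b was 3.42, 2.78 and 2.88 at P6, P15 and 8 weeks (3.76, 3.12 and 3.22 as reported), and the activating sum over Fcgr2b was 3.68, 3.13 and 3.17 (4.08, 3.55 and 3.59). The P6 male, P15 female and 8-week mice were not left out 1 at a time, since these groups hold 6 mice each. Counts of 248 or more per library leave depth as no limit for the members.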
